A study of Mus musculus with 15 samples.

Results

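The genes described here encode splicing factors and heterogeneous nuclear ribonucleoproteins (hnRNPs). They were chosen by symbol alone: protein-coding genes of the RefSeq annotation of the mouse build GRCm38/mm10 whose symbols begin with Snrp, Sf3a or Sf3b, Prpf, U2af, Srsf or Hnrnp. The rule gave 69 of 21887 protein-coding genes, with 12 Snrp, 9 Sf3a/b, 13 Prpf, 3 U2af, 11 Srsf and 21 Hnrnp genes. A gene was counted for a library when that library's list held a called peak inside the gene or within 2500 bp of either end of it. It was called reproducible for a group when at least 2 of the 3 libraries had such a peak.

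The peaks come from CUT&Tag, a method in which an antibody brings a transposase to its target so that the DNA beside it is cut and tagged. It was run on HPC-7, a mouse blood progenitor line that was made from embryonic stem cells, with about 150000 cells per reaction. HPC-7 cells with an shRNA against YY1, called shYY1, were profiled for the cohesin subunit SMC3 in 3 libraries. Control HPC-7 cells were profiled for the transcription factor YY1, for SMC3 and for the promoter mark H3K4me3, with 3 libraries each. The controls are named WT in the titles and shLUC, after a luciferase shRNA, in the descriptions, so they carry a control shRNA by one label and none by the other. All cells are of the 1 line, and the shYY1 descriptions give the same shRNA name in every library. YY1 was not profiled in shYY1 cells in the lists used here, so the depth of the knockdown was not measured, and the 3 IgG libraries were not analysed here.

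Splicing removes introns from pre-mRNA in the spliceosome, which is built from small nuclear ribonucleoproteins (snRNPs) and many further proteins. The Snrp genes encode the Sm proteins that form a ring on the snRNAs and proteins particular to the U1 and U2 snRNPs, SF3a and SF3b bind the branch site as parts of the U2 snRNP, the U2AF proteins recognise the 3′ splice site, and many PRPF proteins belong to the tri-snRNP or act in its activation. SR proteins (Srsf) and hnRNPs bind exons and introns and favour or oppose the use of nearby splice sites, and in blood the human genes SF3B1, SRSF2 and U2AF1 are recurrently mutated in myelodysplastic syndromes. YY1 is a zinc finger protein found at many active promoters, and SMC3 is a structural subunit of cohesin, the ring complex that forms chromatin loops.

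The promoters of 6 of these genes are shown because they carry the contrasts described further on. Each run is 300 bases, the 250 bases before and the 50 bases after an annotated start, taken from RefSeq sequence of build GRCm38.p6 and written 5′ to 3′ on the strand of the gene. Capitals mark the letters AANATGGC, the core of the YY1 recognition sequence, read on either strand, so that GCCATCTT and GCCATTTT are the same letters on the opposite strand. In Prpf38b (chr3:108911680-108911979, minus strand) and Hnrnpd (chr5:99978889-99979188, minus strand), both with YY1 and SMC3 in every library, the letters lie across the start. Sf3a1 (chr11:4160104-4160403, plus strand) holds the only match among these genes to the longer form, which includes the 3 lower-case letters just before the capitals. Srsf2 (chr11:116853045-116853344, minus strand) had the longest YY1 peaks of the SR protein genes. Snrpe (chr1:133610231-133610530, minus strand) had YY1 and SMC3 in every library without these letters in the window. Snrpb2 (chr2:143062819-143063118, plus strand) had H3K4me3 in every library and no YY1 peak.
Prpf38b: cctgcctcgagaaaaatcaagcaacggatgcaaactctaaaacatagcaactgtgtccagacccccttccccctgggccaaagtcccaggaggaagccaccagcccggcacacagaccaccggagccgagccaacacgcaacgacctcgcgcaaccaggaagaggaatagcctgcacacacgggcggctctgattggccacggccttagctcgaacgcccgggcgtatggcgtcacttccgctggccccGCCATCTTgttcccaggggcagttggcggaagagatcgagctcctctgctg
Hnrnpd: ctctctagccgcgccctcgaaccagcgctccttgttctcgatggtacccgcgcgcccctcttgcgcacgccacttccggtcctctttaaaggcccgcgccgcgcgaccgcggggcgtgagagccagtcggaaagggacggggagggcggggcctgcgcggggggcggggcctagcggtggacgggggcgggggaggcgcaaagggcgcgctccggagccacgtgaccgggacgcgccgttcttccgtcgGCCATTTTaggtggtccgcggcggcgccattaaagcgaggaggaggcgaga
Sf3a1: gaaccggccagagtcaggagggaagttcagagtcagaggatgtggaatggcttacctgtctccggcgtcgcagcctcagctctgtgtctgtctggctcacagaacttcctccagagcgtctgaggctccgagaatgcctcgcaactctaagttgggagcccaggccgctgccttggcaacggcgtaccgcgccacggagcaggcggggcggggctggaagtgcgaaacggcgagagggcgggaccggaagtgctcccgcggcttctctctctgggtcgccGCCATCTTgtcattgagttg
Srsf2: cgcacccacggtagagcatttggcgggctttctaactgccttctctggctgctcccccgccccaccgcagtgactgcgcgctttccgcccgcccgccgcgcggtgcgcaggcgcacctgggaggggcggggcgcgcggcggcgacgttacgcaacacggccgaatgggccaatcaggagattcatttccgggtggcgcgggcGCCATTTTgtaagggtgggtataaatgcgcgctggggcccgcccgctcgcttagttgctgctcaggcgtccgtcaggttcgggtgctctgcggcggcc
Snrpe: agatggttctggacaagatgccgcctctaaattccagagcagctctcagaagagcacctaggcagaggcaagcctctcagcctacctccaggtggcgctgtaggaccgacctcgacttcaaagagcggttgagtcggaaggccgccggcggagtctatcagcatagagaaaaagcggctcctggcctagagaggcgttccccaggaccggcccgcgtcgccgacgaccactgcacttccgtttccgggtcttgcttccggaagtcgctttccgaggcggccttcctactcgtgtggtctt
Snrpb2: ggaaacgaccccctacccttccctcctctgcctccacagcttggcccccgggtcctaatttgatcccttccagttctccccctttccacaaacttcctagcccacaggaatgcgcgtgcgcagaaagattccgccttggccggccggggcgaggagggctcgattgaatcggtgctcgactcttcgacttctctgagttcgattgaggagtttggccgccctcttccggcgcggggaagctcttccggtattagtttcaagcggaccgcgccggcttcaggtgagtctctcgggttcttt

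The lists held 2631 to 3213 peaks for SMC3 in shYY1 cells, 2061 to 4595 for SMC3 in control cells, 3750 to 10699 for YY1 and 16763 to 17895 for H3K4me3. Replicate 3 of control SMC3 and replicate 3 of YY1 had the shortest lists of their groups, 2061 and 3750 peaks. The lists carry no read count, height or score, so the sequencing depth is unknown, and a longer list can come from deeper sequencing or from more occupied sites. A missing peak also cannot tell fewer cells with the protein at a gene from less of it per cell. In each arm, replicate 1 of SMC3 has Abcam in its description and replicates 2 and 3 do not, and it is not stated whether their antibody differed. Of 12 blood progenitor genes listed to check the cell type, such as Kit, Gata2 and Runx1, 12 had reproducible H3K4me3, against 4 of 20 genes of other tissues (Nova2, Celf5, Rbm24 and Rbm20). Albumin, Myod1, Neurod1 and the epithelial gene Krt5 had no peak of any target.

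Nearly all of these genes carried the promoter mark, and most of them carried YY1. H3K4me3 was reproducible at 66 of 69 genes, against 53.2% of all protein-coding genes, and each of the 66 had it in 3 of 3 libraries. YY1 was reproducible at 57 genes, against 34.6% of all genes, and SMC3 at 24 in shYY1 cells and at 30 in control cells, against 13.2% and 17.5% of all genes. Since most of these genes have the mark, the closer background is the 11645 genes with reproducible H3K4me3. Among those, YY1 was reproducible at 86.4% of the splicing and hnRNP genes and 64.8% of all marked genes. SMC3 in shYY1 cells was reproducible at 36.4% of them and 24.7% of all marked genes, and SMC3 in control cells at 45.5% and 32.6%. All 9 YY1 and SMC3 libraries had a peak at 13 genes (19.7% of the 66 marked genes of the group, against 11.7% of all marked genes), and no YY1 library had one at 6 (9.09%, against 21.9%). These shares describe genes, not replicates, and were not tested.

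By library, YY1 peaks lay at 57, 59 and 41 of the 69 genes. SMC3 peaks lay at 24, 25 and 22 genes in shYY1 cells and at 33, 34 and 19 in control cells, while H3K4me3 lay at 66 in each library. The low counts fell in replicate 3 of YY1 and of control SMC3, the short lists. As a share of marked genes, the 3 YY1 libraries held 86.4%, 89.4% and 62.1% of the splicing and hnRNP genes, against 67.1%, 75.1% and 34.3% of all marked genes. In each YY1 library the share was therefore higher among these genes than among all marked genes. The same was true of each SMC3 library, with 36.4%, 37.9% and 33.3% against 23.6%, 27.3% and 26.5% in shYY1 cells, and 50%, 51.5% and 28.8% against 38.3%, 39.0% and 18.3% in control cells. The median gene span was 12501 bp in the group, against 22862 bp for all marked genes. The part of gene length and of neighbouring promoters in these shares was not tested.

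**Figure D1:**
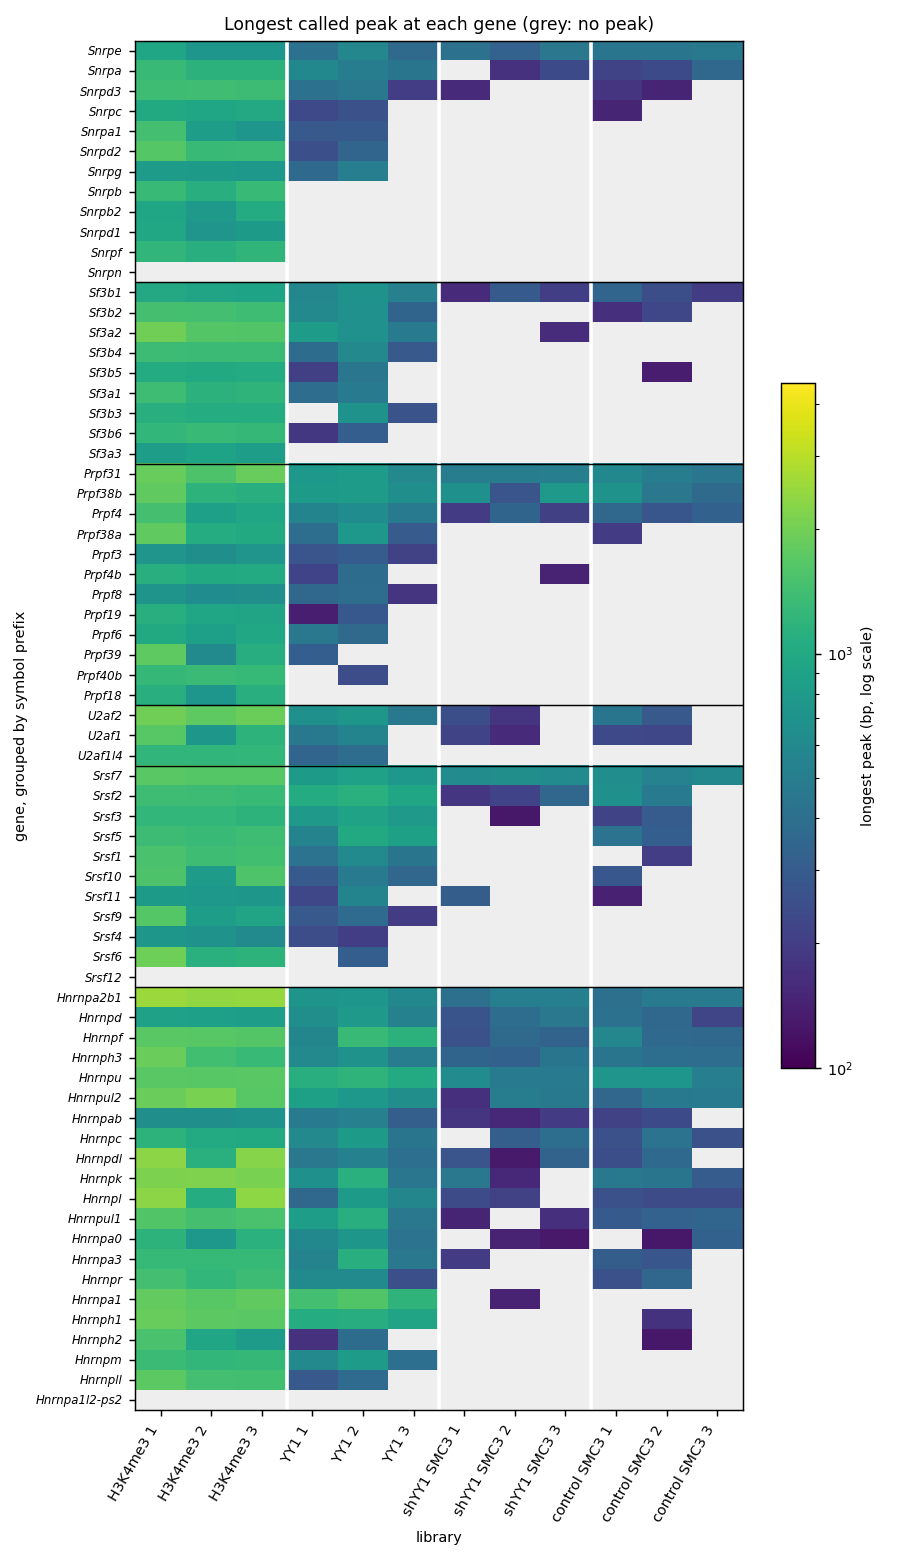
Length in bp (colour, log scale) of the longest called peak at each of 68 of the 69 genes (rows, by symbol prefix) in each of the 12 libraries (columns), with grey where no peak was called. H3K4me3 fills 65 rows, YY1 most of them, and SMC3 is most frequent in the Hnrnp rows.

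The core snRNP genes had the lowest share with YY1 of the 6 families. Of 12 Snrp genes, 11 had H3K4me3, 7 had reproducible YY1, 2 had reproducible SMC3 in shYY1 cells and 3 in control cells. The YY1 share, 58.3%, lay above that of all genes (34.6%) and near that of all marked genes (64.8%). It is therefore not shown to be low against the background. The SMC3 shares, 16.7% and 25%, lay between those of all genes (13.2% and 17.5%) and those of all marked genes (24.7% and 32.6%). Among the 7 genes for the shared Sm ring, YY1 was reproducible at 4 (Snrpe, Snrpd3, Snrpd2 and Snrpg) and absent from all 3 libraries at Snrpb, Snrpd1 and Snrpf. Snrpb, which encodes the ring proteins B and B′, had H3K4me3 peaks of 1318, 1099 and 1292 bp and no YY1 or SMC3 peak in any library. Snrpb thus carried the mark at a length within the range of the whole group, without the factor.

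Snrpe, a ring protein gene on chromosome 1 (133603871 to 133610280), was the only Snrp gene with YY1 and SMC3 in all 9 libraries. Its SMC3 peaks measured 419, 330 and 454 bp in shYY1 cells and 438, 437 and 467 bp in control cells, and its YY1 peaks 413, 585 and 374 bp. The SMC3 lengths of the arms overlapped. The SMC3 summits lay 46 to 90 bp upstream of the annotated start in shYY1 cells and 46 to 149 bp upstream in control cells, inside the printed window, and the YY1 summits 44 to 46 bp upstream. Snrpa, the U1 snRNP A protein gene, had the longest YY1 peaks of the family relative to their lists, 594, 494 and 439 bp, and SMC3 in 2 shYY1 and 3 control libraries. The U2 snRNP gene Snrpa1 had YY1 in 2 libraries and no SMC3, and its partner Snrpb2 had neither.

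Snrpn, whose Sm protein N stands in for B in brain, had no peak of any target. It lies in an imprinted region on chromosome 7, and its span of 59982495 to 60450177 is long. Srsf12, an SR protein gene, and Hnrnpa1l2-ps2, a gene that RefSeq lists as protein-coding although its symbol is that of a pseudogene, were the other genes of the group without any peak.

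Genes of SF3a and SF3b, the branch site complexes of the U2 snRNP, had YY1 at most members and SMC3 at few. All 9 had H3K4me3 and 8 had reproducible YY1, with Sf3a3 as the one without a YY1 peak in any library, while SMC3 was reproducible at 1 gene in shYY1 cells and 2 in control cells (11.1% and 22.2%, against 24.7% and 32.6% of all marked genes and 13.2% and 17.5% of all genes). With 9 genes these SMC3 shares are not shown to differ from either background. Sf3b1, the subunit that holds the branch site and lies on chromosome 1 (54985169 to 55027501), had all 9 peaks. Its YY1 peaks were 581, 695 and 528 bp long, and its SMC3 peaks 159, 292 and 203 bp in shYY1 cells and 344, 250 and 197 bp in control cells. Ranked by length within their lists, the SMC3 peaks at Sf3b1 had a mean percentile of 38.3 in shYY1 cells and 50.7 in control cells. The lengths of the arms overlapped.

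Sf3a2 had the longest YY1 peaks of the 2 complexes relative to their lists, 802, 690 and 484 bp. Only 1 of 6 SMC3 libraries had a peak there, of 161 bp in shYY1 replicate 3. At Sf3b2 the SMC3 peaks of 2 control libraries, 168 and 226 bp long, had their summits 130 to 245 bp from the start of the neighbouring gene Pacs1 and 22091 and 22206 bp from its own start. The SMC3 call for Sf3b2 thus lay at the neighbour's start, while its YY1 peaks included one at its own start in each library.

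The Prpf genes mostly had SMC3 in all libraries or in none. All 13 had H3K4me3, 10 had reproducible YY1, and 4 had reproducible SMC3 in each arm. This SMC3 share, 30.8%, stands against 24.7% of all marked genes in shYY1 cells and 32.6% in control cells. Of all 11645 marked genes, 1492 had SMC3 in all 6 libraries and 5951 in none. SMC3 was also called in 1 control library at Prpf38a (197 bp) and in 1 shYY1 library at Prpf4b (145 bp), and at 7 Prpf genes in none. The 4 genes with reproducible SMC3 were the same in both arms and included Prpf4, Prpf31 and Prpf38b. Prpf4 and Prpf31 encode proteins bound to the U4 and U6 snRNAs in the tri-snRNP, and Prpf38b a protein linked to spliceosome activation.

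Prpf38b had SMC3 peaks of 674, 274 and 770 bp in shYY1 cells and 697, 452 and 372 bp in control cells, which overlapped. Its YY1 peaks measured 791, 823 and 670 bp.

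At Prpf31 (chromosome 7, 3629985 to 3642485) the SMC3 peaks measured 493, 498 and 510 bp in shYY1 cells and 593, 498 and 448 bp in control cells, so the shYY1 lengths lay inside the wider control range. All of them had their summits 328 to 424 bp from the start of Cnot3, a neighbour encoding a deadenylase subunit, and none lay within 1000 bp of the start of Prpf31 itself. YY1 was called at the start of Prpf31 in 2 libraries, as peaks of 267 and 230 bp. Prpf8, the large protein at the catalytic core of the spliceosome, differed from these: its YY1 peaks of 356, 391 and 179 bp came with no SMC3 peak in any of the 6 libraries. Prpf3 had the same pattern, with YY1 peaks of 272, 301 and 208 bp and no SMC3. Prpf18, which acts in the second step of splicing, had H3K4me3 but no YY1.

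The 3 U2AF genes all had H3K4me3 and reproducible YY1. SMC3 was reproducible at U2af1 and U2af2 in both arms, called in replicates 1 and 2 and in replicate 3 of neither arm, and absent at the paralogue U2af1l4. U2af2, the subunit that binds the polypyrimidine tract, had longest YY1 peaks of 672, 755 and 466 bp. Its only SMC3 peaks in shYY1 cells measured 251 and 179 bp, while control cells had 442, 151 and 140 bp in replicate 1 and 290 and 196 bp in replicate 2, at more than 1 site. U2af1, the subunit that reads the AG of the 3′ splice site, had SMC3 peaks of 217 and 159 bp in shYY1 cells and 232 and 226 bp in control cells. Over all peaks the lengths of the arms overlapped at U2af2. Its longest peak per library was shorter in both shYY1 libraries (251 and 179 bp) than in both control libraries (442 and 290 bp). At U2af1 both shYY1 peaks were likewise shorter than both control peaks, over 2 libraries an arm.

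Among the SR protein genes YY1 was common, and the number with SMC3 differed widely between control libraries. Of 11 Srsf genes, 10 had H3K4me3 and 9 reproducible YY1, while SMC3 was reproducible at 2 in shYY1 cells and 4 in control cells. These SMC3 shares, 18.2% and 36.4%, stand against 24.7% and 32.6% of all marked genes, and are not shown to differ from them. By library, SMC3 lay at 3, 3 and 2 Srsf genes in shYY1 cells and at 6, 5 and 1 in control cells. The control counts spanned those of shYY1 cells, and the low value was again control replicate 3.

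Srsf7, on chromosome 17 (80200080 to 80207369), had all 9 peaks, with SMC3 lengths of 626, 660 and 626 bp in shYY1 cells and 642, 541 and 588 bp in control cells. Srsf2, whose protein binds exonic enhancers, had YY1 peaks of 1034, 1124 and 949 bp. Its SMC3 peaks measured 182, 216 and 352 bp in shYY1 cells and 679 and 485 bp in control cells, with none in control replicate 3. Each shYY1 peak was shorter than both control peaks, and the control library without a peak had the shortest list. The start of the divergent neighbour Mfsd11 lies within 1000 bp of these summits, so the peaks cannot be given to 1 of the 2 genes.

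Srsf3, a small SR protein, had YY1 peaks of 774, 892 and 785 bp, and SMC3 in 1 shYY1 library (128 bp) and 2 control libraries (219 and 303 bp). Srsf5 had long YY1 peaks too, 550, 1008 and 868 bp, with no SMC3 in shYY1 cells and peaks of 424 and 311 bp in 2 control libraries. Srsf1, whose protein binds exonic enhancers, had YY1 peaks of 427, 610 and 439 bp and a single SMC3 peak, of 200 bp, in control replicate 2. In all 3 genes control replicate 3 had no SMC3 peak.

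Among the families with more than 3 genes, the hnRNP genes had the highest share with SMC3 in both arms. Of 21, 20 had H3K4me3, and the same 20 had reproducible YY1. Of the 21, 13 had reproducible SMC3 in shYY1 cells and 15 in control cells (61.9% and 71.4%, against 24.7% and 32.6% of all marked genes). Hnrnp genes therefore gave 13 of the 24 reproducible SMC3 genes in shYY1 cells and 15 of the 30 in control cells. SMC3 lay at 12, 13 and 11 of them in the shYY1 libraries and at 14, 17 and 11 in the control libraries, so the 2 arms overlapped. Their median span, 12212 bp, was close to that of the whole group.

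Hnrnpa2b1, which encodes the pre-mRNA binding proteins A2 and B1, had the longest mean H3K4me3 peak of the group, with 2527, 2441 and 2448 bp. Its YY1 peaks were 717, 734 and 589 bp long and its SMC3 peaks 408, 515 and 518 bp in shYY1 cells and 406, 485 and 471 bp in control cells. The arms overlapped, and the promoter is shared with Cbx3, a heterochromatin protein gene whose start lies within 1000 bp. Hnrnpd, the AU-rich element binding protein gene, had SMC3 peaks of 268, 387 and 456 bp in shYY1 cells and 421, 357 and 220 bp in control cells, which overlapped as well.

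Hnrnpu, a nuclear scaffold protein gene on chromosome 1 (178321108 to 178338891), had long peaks of both proteins: 1100, 1196 and 1032 bp for YY1, and for SMC3 624, 486 and 470 bp in shYY1 cells and 723, 744 and 508 bp in control cells. These longest peaks lay 47 to 319 bp from the start of the neighbour Cox20, at the far end of Hnrnpu. At its own start Hnrnpu had YY1 peaks of 455 and 460 bp in 2 libraries and an SMC3 peak in 1 control library only, of 176 bp. A short SMC3 peak of 138 to 174 bp, with its summit 1284 to 1286 bp inside the gene, was called in all 3 shYY1 libraries and, at 180 and 186 bp, in 2 control libraries.

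Hnrnpa1, a splicing repressor that binds exonic and intronic silencers, had the longest YY1 peaks of all 69 genes, 1451, 1609 and 1181 bp. Yet SMC3 was called there in 1 library only, as a 147 bp peak in shYY1 replicate 2. Hnrnph1 was alike, with YY1 peaks of 1060, 1079 and 918 bp and a single SMC3 peak of 174 bp in control replicate 2. Long YY1 peaks thus did not always come with SMC3. Hnrnpk, a poly(C) binding protein gene, had YY1 peaks of 678, 1128 and 447 bp, and SMC3 peaks of 461 and 155 bp in shYY1 cells and 463, 440 and 302 bp in control cells.

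**Figure D2:**
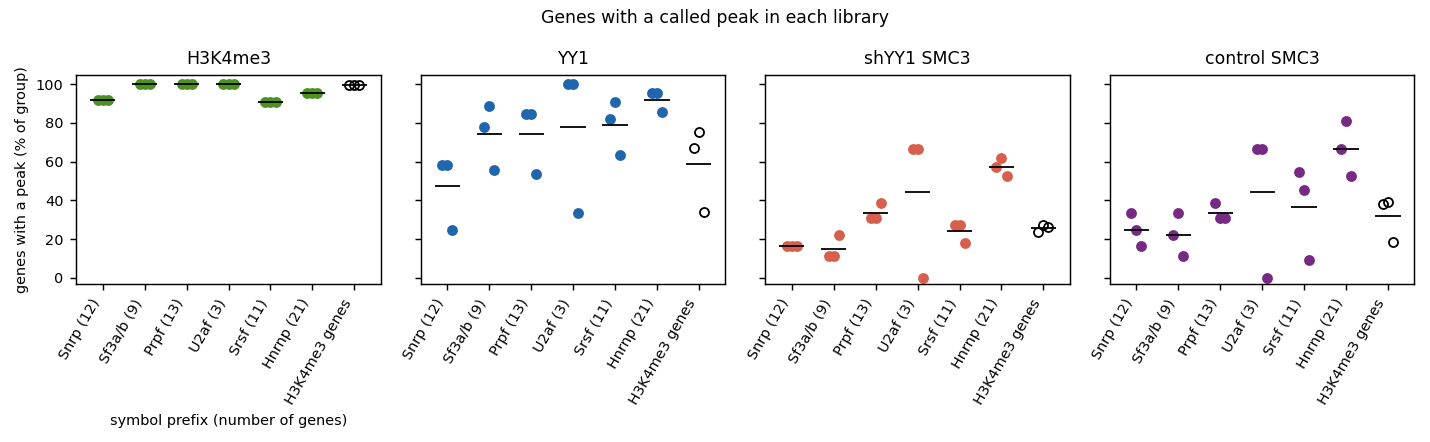
Percent of the genes of each symbol prefix with a called peak, 1 point per library and a line at the mean of 3 libraries, with all genes that have reproducible H3K4me3 as open circles. Hnrnp genes lie highest of the larger families for SMC3, at 11 to 13 of 21 genes in shYY1 libraries and 11 to 17 in control libraries, and Snrp genes have the lowest mean for YY1.

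YY1 and SMC3 were called at these genes together or with YY1 alone. All 24 genes with reproducible SMC3 in shYY1 cells and all 30 in control cells had reproducible YY1, against 98.7% and 97.9% of all genes with reproducible SMC3. The share among these genes is thus near the background. YY1 was reproducible without reproducible SMC3 of either arm at 27 genes, and 16 of these had no SMC3 peak in any library. These 2 counts were not computed over all genes with reproducible YY1, so they are not shown to be particular to the group. Of 40 genes with YY1 in 3 libraries, 29 had reproducible control SMC3, and of 17 genes with YY1 in 2 libraries, 1 did (U2af1), against 69.7% and 27.6% of all genes in those classes. The 5 genes with YY1 in 3 libraries and no SMC3 at all were Hnrnpm, Prpf3, Prpf8, Sf3b4 and Srsf9.

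The SMC3 peaks at these genes lay on the YY1 peaks. In shYY1 cells 27 of 27, 27 of 27 and 25 of 25 of them shared at least 1 bp with a YY1 peak of control cells, and in control cells 39 of 40, 39 of 39 and 20 of 21. Over whole lists the share was 96.9% to 97.6% in shYY1 cells and 96.0% to 98.5% in control cells. The median distance from an SMC3 summit to the nearest YY1 summit was 31, 7 and 22 bp in shYY1 cells and 4, 26 and 23 bp in control cells. Over whole lists it was 12, 11 and 11 bp in shYY1 cells and 10, 13 and 10 bp in control cells. The length of the H3K4me3 peak of a gene, as its mean over libraries, moved in part with these calls. Its median was 1352 bp at the 40 genes with YY1 in 3 libraries, 1047 bp at the 17 with YY1 in 2, 1293 bp at the 3 with YY1 in 1 and 947 bp at the 6 marked genes with none. Over all marked genes the medians of these classes were 1180, 1043, 981 and 805 bp. It was 1663 bp at the 13 genes with SMC3 in all 6 libraries and 1140 bp at the 25 marked genes with none, against 1220 and 945 bp over all marked genes. IgG was not analysed, so the part of signal common to open promoters in these calls was not tested.

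The comparison of YY1 with SMC3 in control cells gave 52.3 ± 9.87 genes per library for YY1 and 28.7 ± 8.39 for SMC3 (SD, n = 3), a difference of 23.7 genes. The lowest YY1 library, with 41 genes, lay above the highest SMC3 library, with 34. An exact permutation test over the 20 assignments of 6 libraries cannot go below 0.1, so no such difference could pass 0.05, and no p is given for counts over these genes. The YY1 lists were longer, and per 1000 peaks of a list the groups overlapped, with 8.96 ± 2.47 peaks at these genes for YY1 and 9.18 ± 0.893 for control SMC3. With equal numbers of the longest peaks per list, the difference was 21.3 genes. The part of list length was not tested further.

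Peaks at these genes were longer than usual for their lists. The median YY1 peak measured 452, 535 and 452.5 bp in the 3 libraries, against 325, 386 and 328 bp at all marked genes. As a percentile of peak length within its list, this was 75.3, 76.8 and 75.4, against 52.4, 53.9 and 51.5 at all marked genes. H3K4me3 peaks were longer as well, with medians of 1242, 935 and 1086 bp, against 904, 751 and 795 bp. SMC3 peaks stood at percentiles of 47.6, 65.0 and 77.2 in the shYY1 libraries and 66.2, 63.9 and 77.8 in the control libraries, against 50.2 to 52.2 at all marked genes, so shYY1 replicate 1, one of the 2 libraries with Abcam in the description, was the exception. These percentiles are descriptions over peaks, which are not replicates.

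The comparison of shYY1 with control cells asked whether SMC3 at these genes differed in cells with the shRNA against YY1. SMC3 lay at 23.7 ± 1.53 genes per shYY1 library and 28.7 ± 8.39 per control library (SD, n = 3 each), a difference of -5 genes that was smaller than the spread of the control libraries. All 3 shYY1 values (24, 25 and 22) fell inside the range of the control values (33, 34 and 19). Per 1000 peaks of a list, 8.97 ± 1.12 peaks lay at these genes in shYY1 cells and 9.18 ± 0.893 in control cells. Without control replicate 3, whose list was the shortest, the difference in genes was -9.83, and both remaining control counts lay above each shYY1 count. It was -2.83 without control replicate 1 and -2.33 without control replicate 2. Without control replicate 3, list length and arm moved together, and the part of list length in that comparison was not tested. With all libraries and equal numbers of the longest peaks per list, the difference was -3 genes. Each shYY1 count then lay below each control count, unlike the counts from whole lists.

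**Figure D3:**
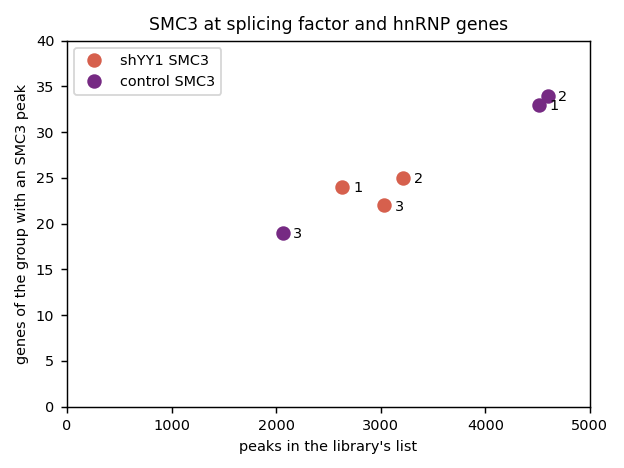
Number of the 69 genes with an SMC3 peak (vertical axis) against the number of peaks in that library's list (horizontal axis), for 3 shYY1 and 3 control libraries labelled by replicate. The shYY1 libraries (22 to 25 genes) lie between control replicate 3 (19 genes) and control replicates 1 and 2 (33 and 34 genes), in the order of list length except among the shYY1 libraries.

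SMC3 was called in at least 1 of the 6 libraries at 41 genes. Of these, 18 had it in fewer shYY1 than control libraries (43.9%, against 42.9% of all genes with SMC3 in any library) and 6 in more (14.6%, against 15.8%). The other 17 had equal numbers, and 13 of them had SMC3 in all 6 libraries (31.7%, against 25.9%). These shares are near those of all genes with SMC3. No gene of the group had SMC3 in all 3 libraries of one arm and in none of the other; among all genes 0.675% were called in every control and no shYY1 library, and 0% in every shYY1 and no control library.

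Reproducible SMC3 was found in both arms at 24 genes, in shYY1 cells only at 0 and in control cells only at 6. The 24 make up 80.0% of the 30 genes with reproducible control SMC3, against 70.6% of all such genes. Of all 2897 genes with reproducible SMC3 in shYY1 cells, 2701 had it in control cells too. Genes with it in shYY1 cells only were thus few over all genes, and the 0 is not shown to be particular to the group. The 6 genes were Hnrnpa3, Hnrnpr, Sf3b2, Snrpd3, Srsf3 and Srsf5, named here after their values were seen. At each of them SMC3 was called in control replicates 1 and 2 and not in replicate 3. Hnrnpr, which encodes an RNA-binding hnRNP, had SMC3 peaks of 256 and 350 bp in control cells and none in shYY1 cells, and Hnrnpa3 had 197 bp in 1 shYY1 library and 308 and 277 bp in 2 control libraries. Without control replicate 3, Hnrnpr, Srsf5 and Sf3b2 would count as called in all control and no shYY1 libraries. The calls at Sf3b2 and Snrpd3 lay at the starts of Pacs1 and Gucd1.

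Peak length did not separate the arms. The median length of SMC3 peaks at these genes was 251, 274 and 336 bp in the shYY1 libraries and 301.5, 290 and 354 bp in the control libraries. The means were 287 ± 44.0 bp in shYY1 cells and 315 ± 34.1 bp in control cells (SD, n = 3 each), a difference of -28.2 bp that is smaller than either SD. It was -8.75 bp without control replicate 3, -10.2 bp without shYY1 replicate 1 and -52.7 bp without shYY1 replicate 3. Of the 13 genes with SMC3 in all 6 libraries, 0 had a shorter peak in every shYY1 than in every control library and 0 a longer one, against 7.54% and 1.34% of all genes with SMC3 in all 6.

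Among these 13, the mean SMC3 peak was shortest at Sf3b1 in both arms. Prpf4 had 196, 342 and 206 bp in shYY1 cells and 359, 278 and 326 bp in control cells, and Hnrnpul2 had 169, 505 and 469 bp in shYY1 cells and 352, 467 and 486 bp in control cells. Hnrnpf, an RNA G-tract binding protein gene, had 257, 371 and 336 bp in shYY1 cells and 581, 369 and 354 bp in control cells, and Hnrnph3 had 340, 327 and 436 bp in shYY1 cells and 436, 394 and 390 bp in control cells. Each of these pairs overlapped. Hnrnpul1, named after its values were seen, had SMC3 in 2 shYY1 libraries (149 and 169 bp) and 3 control libraries (295, 331 and 345 bp), with no overlap between the called lengths. Its call in all 3 control libraries included the one with the shortest list.

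**Figure D4:**
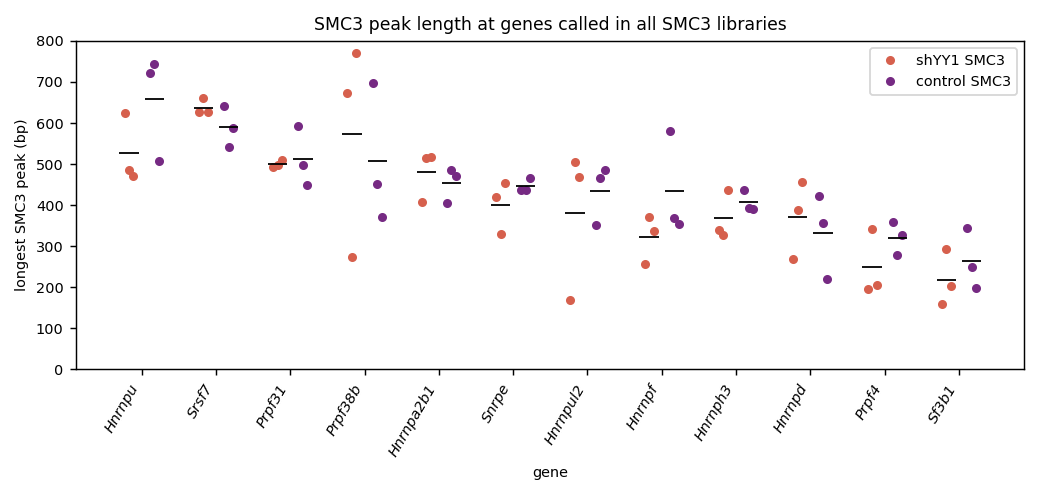
Longest SMC3 peak in bp at 12 of the 13 genes with SMC3 in all 6 libraries, 1 point per library and a line at the mean of 3, shYY1 left of control for each gene. The points of the 2 arms overlap at each of the 12 genes, from Hnrnpu with up to 744 bp to Sf3b1 with up to 344 bp.

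Where the peaks sit was read from annotated starts, which were at hand for 60 of the 69 genes. The 9 genes with no entry in the table included Hnrnpll, Hnrnpul2, Prpf18, Sf3b4, Sf3b5, Snrpb, Snrpd1 and U2af2. Of the 57 genes with an entry and H3K4me3, 51 had a YY1 summit within 1000 bp of their own start in at least 2 libraries, against 56% of marked genes with an entry. SMC3 summits met this at 19 genes in shYY1 cells and 24 in control cells, against 20.6% and 26.9%. Of the YY1 peaks at genes with an entry, 90.2%, 91.0% and 94.9% lay at the gene's own start, against 75.1%, 72.0% and 79.6% at all marked genes.

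SMC3 and YY1 summits lay mostly upstream of the start, and H3K4me3 summits around it. The median summit of peaks within 1000 bp of the own start was at -97, -159 and -116 bp for SMC3 in shYY1 cells and at -55.5, -97 and -133 bp for SMC3 in control cells, where negative values are upstream. For YY1 it was at -72, -60 and -94 bp, and for H3K4me3 at -1, 4 and -15 bp. At all marked genes the medians for SMC3 were -84, -87 and -88.5 bp in shYY1 cells and -78, -77 and -102 bp in control cells. There they were -51, -35 and -64 bp for YY1 and 38, 27 and 18 bp for H3K4me3. YY1 summits were upstream in 63.6%, 59.0% and 75.7% of cases, against 65.0%, 59.7% and 63.6% at all marked genes. The YY1 share was thus higher in replicate 3 only. The SMC3 summits were mostly upstream, 85.7%, 90.5% and 94.4% of them in shYY1 cells and 83.3%, 83.3% and 93.3% in control cells, against 71.2% to 75.1% at all marked genes over the 6 libraries. The SMC3 positions of the 2 arms overlapped. Each SMC3 library rests on 15 to 30 such peaks.

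**Figure D5:**
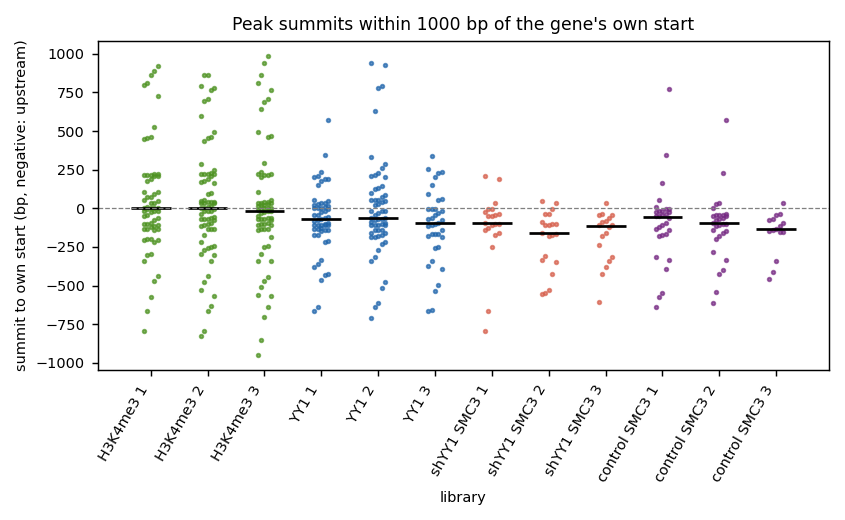
Distance in bp from the gene's own annotated start to each peak summit within 1000 bp of it (negative is upstream), 1 point per summit at the genes with a start in the table, with a line at the median of each library. Medians lie at -159 to -97 bp for shYY1 SMC3, -133 to -55.5 bp for control SMC3, -94 to -60 bp for YY1 and -15 to 4 bp for H3K4me3.

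Many of these genes share their promoter region with another gene. Of the 60 with any YY1 peak, 25 had a YY1 summit within 1000 bp of the start of another protein-coding gene. The same share over all marked genes was not computed, so this count is not shown to be particular to the group. Examples are Hnrnpa1 with Cbx5, Hnrnpa2b1 with Cbx3, Hnrnpk with Rmi1, Prpf4 with Cdc26, Srsf2 with Mfsd11 and Snrpd3 with Gucd1. A peak between 2 such starts counts for both genes. Counting only summits within 1000 bp of the gene's own start, or of either end for genes with no entry, left 57 genes with reproducible YY1, 22 with SMC3 in shYY1 cells and 27 with SMC3 in control cells. The genes that dropped out were Hnrnpu and Prpf31 in both arms and Sf3b2 in control cells, and 11 of the 13 genes with all 9 peaks still had all 9.

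The YY1 letters AANATGGC were found in the promoter windows of 7 of the 60 genes (11.7%), on both strands searched, against 7.46% of 17492 genes in the table and 10.4% of marked genes. The 7 were Prpf38b, Hnrnpd, Hnrnpul1, U2af1l4, Sf3a1, Srsf2 and Hnrnpc. All 7 are among the 51 with reproducible YY1 (13.7%), against 0 of the 9 without, and over all marked genes the shares were 13% with and 5.36% without YY1. The 9 include Srsf12, Snrpn and Hnrnpa1l2-ps2, which lack H3K4me3, so they are not fully like the marked genes. With so few genes the 0 is not shown to differ from 5.36%. In 6 of the 7 the letters were on the opposite strand, beginning within 48 bases of the start, and U2af1l4 had them on its own strand. The longer form, the same letters followed by GGC, was found at Sf3a1 only (1.67%, against 1.63% of all genes in the table).

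In the printed promoters the letters lay inside a YY1 peak in each library that called YY1 at Prpf38b, Hnrnpd, Sf3a1 or Srsf2. Their distance to the nearest YY1 summit was 2, 203 and 203 bp at Prpf38b, 84, 162 and 165 bp at Hnrnpd, 157 and 17 bp at Sf3a1 and 332, 273 and 331 bp at Srsf2. At the other 3 genes the letters were outside the YY1 peaks in some libraries, in 2 of 3 at Hnrnpc, in 1 of 3 at Hnrnpul1 and in 1 of the 2 with YY1 at U2af1l4. Of the other letters searched on both strands, the ETS core CCGGAAGT was in 18.3% of the 60 windows (5.69% of all genes in the table, 9.63% of marked genes), with Snrpe among them at 6 bases from the start. The NRF1 letters, GCGCA, 1 free letter and GCGC, were in 23.3% (7.17% and 12.1%), including Snrpb2 at 139 bases upstream, and a CTCF core, spelled as CC, 3 free letters, AG, 2 free letters and GGC, in 15.0% (11.3% and 15.0%). A match describes these letters in the window and is not evidence of binding.

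Other genes of the spliceosome, outside the symbol families, were read the same way. Of 44 such genes, chosen by name, 44 had reproducible H3K4me3. YY1 was reproducible at 33 of them (75%, against 64.8% of all marked genes), SMC3 in shYY1 cells at 10 (22.7%, against 24.7%) and SMC3 in control cells at 15 (34.1%, against 32.6%). Snrnp70, which encodes a U1 snRNP protein, and Sf1, the branch point binding protein, had YY1 and SMC3 in all 9 libraries. Lsm4, part of the LSM ring on U6, had SMC3 in all 6 libraries and YY1 in 2. Slu7, Aqr, Usp39 and Snrnp48 had H3K4me3 in 3 libraries and no peak of YY1 or SMC3. These genes were named after their values were seen.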

How the data were processed

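CUT&Tag lists of 12 libraries were used. The authors deposited 1 list of called peaks per library, with start, end and the offset of the summit as positions in bp, per the file headers. The tools named in the submitters' processing notes are MACS2 2.2.9.1, Picard 3.1.1, Bowtie2 2.5.1 and cutadapt 4.5, with build mm10. Settings, peak threshold and any use of IgG are not given in the sources available here. The labels' protocol calls the 3 libraries of a group biological replicates. Starts were taken as counted from 0, and 1 was added. Gene spans and strandless ends came from the RefSeq table of GRCm38.p6, and starts, strand and sequence from its promoter table (60 of 69 genes matched by gene ID).

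A gene counted for a library when any base of a peak lay within 2500 bp of either end or inside the gene. Peak length percentiles are ranks within a list. Means of library values were compared by exact two-sided permutation, and no p is printed for values over the chosen genes. Python 3.11.15, numpy 2.4.6, pandas 2.3.3, scipy 1.17.1 and matplotlib 3.10.9 were used, and the counting was tested on simulated data. The members and lists were chosen with earlier results of these data known. Named genes were a fixed list of 14, the gene with the highest mean YY1 length percentile per prefix, genes with all 9 peaks and genes without H3K4me3 (1 gene that the rule names is not reported here); others were named after their values were seen. Alternatives were narrower windows, summits, equal list lengths, other library minimums, leaving out libraries, a replicate block and, added after seeing the data, own starts only.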

Additional observations from a re-analysis of the deposited data

How the results depend on the processing

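The count of genes with reproducible SMC3 in control cells was 30 in at least 2 of 3 libraries, 18 in 3 of 3, 19 without both libraries whose description names Abcam, and 18 to 29 when 1 control library was left out (19, 18 and 29 without replicates 1, 2 and 3). Genes with SMC3 in every control and no shYY1 library numbered 0, against 1 with equal numbers of the longest peaks per list and 0 to 3 when 1 library was left out, the 3 being without control replicate 3. YY1 was called at 57 genes in at least 2 libraries, 40 in 3 of 3, 42 with equal list lengths and 40 to 56 when 1 YY1 library was left out. Where libraries were left out, a reproducible gene needed a peak in both remaining libraries of the group. That rule is stricter than 2 of 3 and cannot raise the count, so these falls do not measure dependence on 1 library or antibody alone. No difference between groups changed its direction under the alternatives tried for it, which include leaving out each library. The shYY1 minus control difference in genes ranged from -9.83 to -2.33, the YY1 minus control SMC3 difference from 18.8 to 29.3, and the difference in median SMC3 length from -52.7 to -8.75 bp. For same-numbered shYY1 and control SMC3 libraries the correlation of deviations over genes was -0.0556, 0.0418 and -0.0601. For different-numbered ones it ran from -0.0860 to 0.122, a range that held the same-numbered values. Such values cannot exclude a shared batch or antibody, so whether the numbers pair these libraries was not settled. For same-numbered YY1 and control SMC3 libraries it was 0.113, 0.0859 and 0.253, against -0.193 to 0.112 for different-numbered ones. Whether the numbers pair YY1 with control SMC3 libraries was not settled. A replicate block cannot move a mean difference in this balanced design (-5 genes, 23.7 genes and -28.2 bp), so it says nothing on stability. Depth is unknown, the arms have 3 libraries each, and presence of a peak is a threshold on an unseen signal, so a gene called in 1 arm only may differ little from one called in both.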

Other observations

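Splicing regulators outside the 6 symbol families were also read from the lists. Of 40 such genes, chosen by name, 40 had reproducible H3K4me3. YY1 was reproducible at 30 (75%, against 64.8% of all marked genes), SMC3 in shYY1 cells at 14 (35%, against 24.7%) and SMC3 in control cells at 16 (40%, against 32.6%). YY1 and SMC3 were called in every library at Raly, an hnRNP-like protein gene, at Rbm39 and Rbm25, at Tra2b, at Pcbp2, at Khsrp and at Srrm2, which encodes a large SR-related protein of nuclear speckles. Ptbp1, the polypyrimidine tract binding repressor, had YY1 in 3 libraries, and SMC3 in 3 shYY1 and 2 control libraries. Tardbp, Pcbp1, Clk1, Celf2 and Rbm5 had YY1 in 3 libraries and no SMC3 peak. Mbnl1, Srpk1, Srpk2 and Rbfox2 had H3K4me3 in 3 libraries and no YY1 or SMC3. These genes were named after their values were seen.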
